A study of Homo sapiens with 2 samples.

Results

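PRAM1 and 9 further genes of immunoreceptor signalling in myeloid cells are described here: the adaptor genes FYB1, SKAP2, LCP2, LAT2, GRB2, GRAP and SH3BP2, and the effector genes VAV1 and PLCG2. They were taken by symbol, 10 of the 50868 genes in the deposited table, and each symbol matched 1 gene. The genes were chosen with their values in these libraries known, PRAM1 for its difference between them, so every difference below is a description. The cells were KASUMI-1, a human acute myeloid leukaemia line with a RUNX1-RUNX1T1 fusion gene. They received either the pccl lentivirus, treated here as the control, or the USP6 lentivirus, named for a deubiquitinase. RNA was sequenced from 1 library of each kind, so no test was possible and no difference has a replicate check. The series title concerns the stabilisation of RUNX1 fusion proteins by USP6. The labels do not state how long after infection the cells were taken, whether they were selected, or whether they were a clone.

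Immunoreceptors and integrins of blood cells have no kinase of their own, and kinases of the SRC and SYK families phosphorylate adaptor proteins next to them. Adaptors have no catalytic activity. They carry domains that bind phosphotyrosine or proline-rich stretches, and so bring enzymes such as VAV1 and PLCG2 to the membrane. PRAM1 is an adaptor of myeloid cells, related in sequence to FYB1 and known to bind SKAP2 and LCP2. It was named for its regulation by the PML-RARA fusion in acute promyelocytic leukaemia, where retinoic acid induces it.

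PRAM1 was the most abundant of the 10 messages in the USP6 library, and SKAP2, which encodes a binding partner of its protein, differed in the other direction. FPKM divides the count of a gene by its length and by the library total, and ratios are given as log2((USP6 + 1)/(pccl + 1)) of these values. At a limit of 1, PRAM1, GRB2, GRAP and VAV1 were higher in the USP6 library and SKAP2 was lower. Expression was defined as 1 FPKM or more in either library, which held for 8 of the 10 genes, and SH3BP2 and FYB1 lay under it in both. SKAP2 passed through its level in the pccl library alone. Of the 8 expressed genes, 4 were thus higher and 1 lower, and their median was 0.72. Over all 10153 expressed genes in the table, 25.1% lay at or past the limit, 13.7% higher and 11.4% lower, and the median was 0.06. With both libraries scaled to the same FPKM sum, 65.2% of the genes past the limit were higher, against 54.7% as deposited. That share was 47.1% with TMM scaling from edgeR and 49.2% with DESeq2 size factors. Depth from nuclear genes alone gave 47.6%, and a median log2 ratio set to 0 gave 47.8%. The balance of higher and lower genes thus depended on the scaling. At a limit of 0.58, or 1.5-fold, the counts of the 8 genes were again 4 and 1, while 52.4% of all expressed genes lay past it, 27.9% higher and 24.5% lower. Since the genes were picked with these values in view, nothing is read from their share. The smallest ratio past the limit was 1.01, for VAV1, and the largest short of it 0.43, for LAT2.

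**Figure D1:**
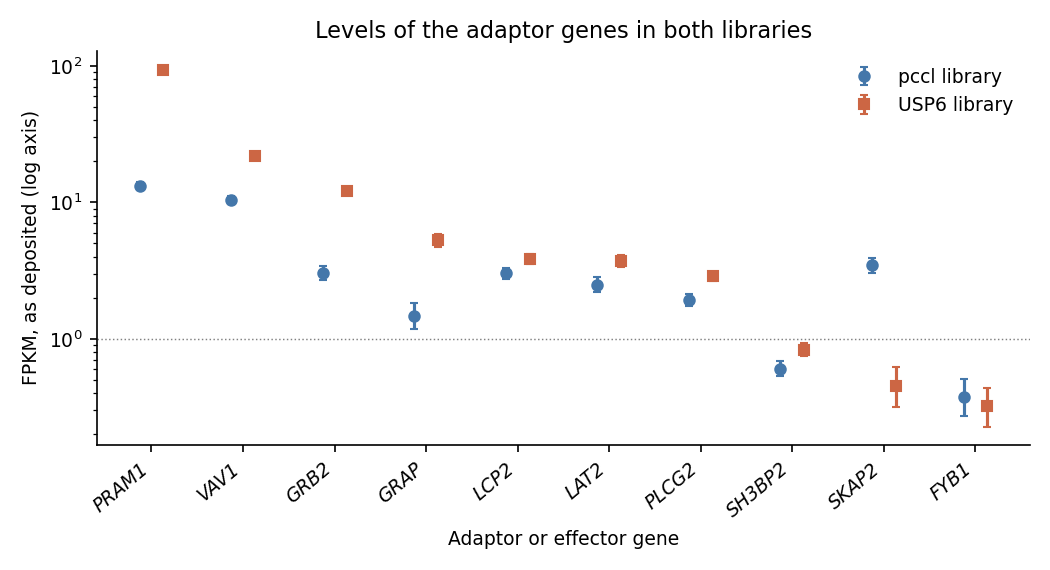
FPKM as deposited of each of the 10 genes (log axis) in the pccl library (circles) and the USP6 library (squares), 1 library each, with bars for the 95% counting interval and a dotted line at 1 FPKM. PRAM1 stands at 13.1 and 92.9 FPKM, and SKAP2 is the only gene of the 10 whose USP6 point lies below its pccl point with no overlap of the bars.

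Both libraries had similar depth, 12306442 counts for pccl and 12518795 for USP6. Mitochondrial genes held 49.9% and 45.6% of these counts, and the part of this share in the values below was not tested. USP6 itself had 8 and 70 counts, and whether reads of the lentiviral construct could be assigned to it is not known. Of 9 markers of myeloid cells and blasts, all were expressed, with a summed level of 246 and 429 FPKM. Higher were MPO (4.44-fold), CEBPA (3.91-fold), SPI1 (2.45-fold) and ANPEP (5.29-fold), whereas the progenitor markers KIT (2.48-fold) and CD34 (3.01-fold) were lower. ANPEP lay under 1 FPKM in the pccl library (0.451). Centred on the trend with base composition described below, MPO stayed past the limit of 1 at 1.66, and CD33 reached 1.03. CEBPA, SPI1 and ANPEP, at 0.99, 0.52 and 0.78, then lay short of it, and KIT and CD34 stood at -1.02 and -1.26. T and natural killer cell markers had 4 of 10 expressed and 2 higher (CD3E and CD2), with sums of 39.0 and 48.0 FPKM and NCAM1 at 0 counts. CD3E and CD2 counted as expressed through the USP6 library alone, their pccl levels being 0.890 and 0.156 FPKM. B cell markers had 3 of 5 expressed and 2 higher (CD79A and CD79B), with sums of 4.06 and 13.9 FPKM, and CD79B had 0.448 FPKM with pccl. Mast cell markers summed to 0.307 and 0.879 FPKM with MS4A2 at 0, megakaryocyte markers to 0.257 and 1.21 FPKM with PF4 and PPBP at 0, and erythroid markers to 0.539 and 0.534 FPKM with ALAS2 at 0. The part of other cell types in the values below was not tested. In RNA from a whole culture, fewer cells of a type and less RNA per cell cannot be told apart.

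PRAM1 had 794 counts with pccl and 5718 with USP6. Its level was 13.1 FPKM (95% counting interval 12.2 to 14.1) and 92.9 FPKM (90.5 to 95.4), 7.08-fold higher in the USP6 library (6.57 to 7.63). The intervals are exact binomial ones, cover counting error only and say nothing of differences between cultures. PCR copies of a molecule are not independent reads, so these intervals may be too narrow. PRAM1 ranked 1311th by FPKM among all genes of the pccl library and 204th in the USP6 library. Its log2 ratio of 2.73 was the 24th highest of the 10153 expressed genes. PRAM1 (ENSG00000133246) lies on the minus strand of chromosome 19 from 8490056 to 8503112, and no listed gene overlaps it. None of the stretches of 50 bases of its longest coding transcript occurred in a transcript of another gene in GENCODE release 29 (0%).

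SKAP2, an adaptor that binds PRAM1 and FYB1 and takes part in integrin signalling, had 273 counts with pccl and 36 with USP6. Its levels of 3.46 FPKM (3.06 to 3.89) and 0.448 FPKM (0.314 to 0.621) make it 7.71-fold lower with USP6 (5.44 to 11.2). Its log2 ratio was -1.62, the 335th lowest of the expressed genes. The intervals of the libraries lay far apart, as they did for PRAM1, with the order turned round. SKAP2 (ENSG00000005020) is listed on the minus strand of chromosome 7 from 26667062 to 26995239. Per kilobase of the longest coding transcript, PRAM1 counts were 4.36 times those of SKAP2 with pccl and 238 times with USP6.

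FYB1 encodes the adaptor ADAP, the relative of PRAM1 that pairs with SKAP proteins in T cells and platelets. It had 44 and 38 counts, 0.377 FPKM (0.274 to 0.506) in the pccl library and 0.320 FPKM (0.226 to 0.439) in the USP6 library. The ratio of USP6 to pccl was 0.849 with an interval of 0.535 to 1.34, so a difference was not detectable at this depth. FYB1 (ENSG00000082074) is on the minus strand of chromosome 5 from 39105236 to 39274528, a locus that differs from the one in GENCODE release 29. The T cell and epithelial relatives of this group, SKAP1 and FYB2, had 0 counts in both libraries.

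The beginnings of the PRAM1 and SKAP2 reading frames are shown because these genes had the largest FPKM folds of the 10, in opposite directions, and also differ in base composition. Each line gives the first 120 coding bases of the longest coding transcript in GENCODE release 29, with the start codon in capitals.
PRAM1: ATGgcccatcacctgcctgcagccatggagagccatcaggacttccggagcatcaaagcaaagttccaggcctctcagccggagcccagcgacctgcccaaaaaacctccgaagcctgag
SKAP2: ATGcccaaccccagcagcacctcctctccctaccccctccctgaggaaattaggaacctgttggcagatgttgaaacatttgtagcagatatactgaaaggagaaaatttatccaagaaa
G and C made up 60% of the printed PRAM1 bases and 45.8% of those of SKAP2. Over the whole reading frames, of 2010 and 1077 bases, the shares were 64.1% and 40.4%.

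LCP2 and LAT2 encode scaffolds on which signalling complexes form, and both stayed within the limit. LCP2, a cytosolic scaffold that binds VAV1 and FYB1 and is bound by PRAM1, had 448 and 578 counts. Its level was 3.03 FPKM (2.76 to 3.33) in the pccl library and 3.85 FPKM (3.54 to 4.18) in the USP6 library, 1.27-fold higher (1.12 to 1.44). LAT2, a membrane-anchored scaffold that is phosphorylated beside Fc and B cell receptors, had 237 and 359 counts. Its level went from 2.49 FPKM (2.19 to 2.83) to 3.71 FPKM (3.34 to 4.12), a 1.49-fold difference (1.26 to 1.76). The counting intervals of the libraries did not overlap for either gene, yet the log2 ratios were only 0.27 and 0.43. LCP2 (ENSG00000043462) is listed on chromosome 5 from 170246237 to 170298227, on the minus strand. LAT2 (ENSG00000086730) is on the plus strand of chromosome 7 from 74199652 to 74229834.

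The GRB2 family adaptors were both higher in the USP6 library. GRB2, which links phosphorylated receptors and scaffolds to the RAS exchange factors SOS1 and SOS2, had 260 counts with pccl against 1042 with USP6. Its level was 3.05 FPKM (2.69 to 3.44) and 12.01 FPKM (11.3 to 12.8), 3.94-fold higher (3.44 to 4.53), with a log2 ratio of 1.68. GRAP, a blood cell relative of GRB2, had 84 and 305 counts. It stood at 1.48 FPKM (1.18 to 1.83) and 5.28 FPKM (4.70 to 5.90), 3.57-fold higher (2.79 to 4.60), with a log2 ratio of 1.34. Both genes thus had similar ratios with overlapping intervals, and GRB2 counts per kilobase were 2.20 times those of GRAP with pccl and 2.43 times with USP6. GRAP2, a further member of the family, had 0 and 8 counts.

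GRB2 (ENSG00000177885) lies on the minus strand of chromosome 17 from 75318076 to 75405709. GRAP (ENSG00000154016) is on the same chromosome and strand from 19020673 to 19047637. Of the 50-base stretches of its longest coding transcript, 15.4% also occur in GRAPL, a near copy of the gene, and 75.1% in transcripts of some other gene, most of them of SLC5A10, which overlaps it on the opposite strand. Both GRAPL and SLC5A10 were listed with 0 counts in both libraries. Reads shared with them could have been given to GRAP or dropped, so the level of GRAP is uncertain.

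SH3BP2, an adaptor that binds SYK, VAV and phospholipase C gamma proteins, had 231 and 323 counts, a 1.37-fold difference (1.16 to 1.63). The deposited levels were 0.606 FPKM (0.530 to 0.689) in the pccl library and 0.833 FPKM (0.744 to 0.929) in the USP6 library. SH3BP2 (ENSG00000087266) is listed on the plus strand of chromosome 4 from 2793023 to 2841098. Its FPKM uses a length of 30982 bases, whereas its longest coding transcript has 9211 bases. With that transcript as the length, its FPKM would be 2.04 and 2.80, above 1 in both libraries.

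VAV1, an exchange factor that activates RAC proteins in blood cells, had 833 counts with pccl and 1786 with USP6. The level was 10.4 FPKM (9.75 to 11.2) against 22.02 FPKM (21.01 to 23.1), 2.11-fold higher in the USP6 library (1.94 to 2.29). Its log2 ratio of 1.01 lay at the limit, and with TMM scaling from edgeR it was 0.91, short of it. The relative VAV3 was 3.86-fold lower in the USP6 library (3.15 to 4.76), with 3.02 and 0.784 FPKM, and VAV2 had 10 and 13 counts. The VAV genes thus differed in direction, and VAV1 held most of their counts in both libraries. VAV1 (ENSG00000141968) is on the plus strand of chromosome 19 from 6772714 to 6857366.

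PLCG2, the phospholipase C gamma of B cells and myeloid cells, cleaves a membrane lipid into the messengers that release calcium and activate protein kinase C. It had 370 and 558 counts, 1.93 FPKM (1.74 to 2.14) in the pccl library and 2.86 FPKM (2.63 to 3.11) in the USP6 library. That is a 1.48-fold difference (1.30 to 1.70) with a log2 ratio of 0.40, short of the limit. PLCG1, the more widely expressed form, had 0.489 and 1.28 FPKM, 2.62-fold higher (2.07 to 3.34), a log2 ratio of 0.62, and overlaps ZHX3, which also had counts. PLCG2 (ENSG00000197943) is on the plus strand of chromosome 16 from 81739097 to 81962693, and the start of the gene overlaps AC099524.1 on the same strand.

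**Figure D2:**
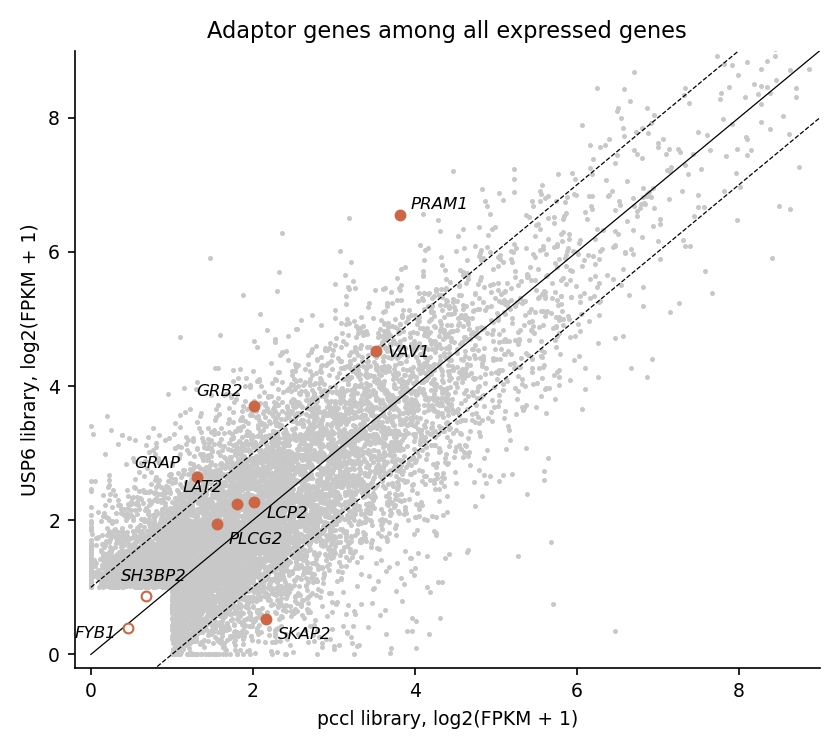
Level of each gene in the USP6 library against the pccl library, both as log2(FPKM + 1); grey points are the other genes with at least 1 FPKM in 1 library, filled orange points the 8 expressed genes named, and open points SH3BP2 and FYB1. The solid line marks equal levels and the dashed lines a log2 ratio of 1 and -1; PRAM1, at 2.73, lies above the upper line and SKAP2, at -1.62, below the lower one, and 51 genes lie beyond the axes.

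The order of the 10 genes by level depended on the library and on the length used. By deposited FPKM, PRAM1 and VAV1 led in both libraries, and their intervals did not overlap. In the pccl library SKAP2, GRB2, LCP2 and LAT2 followed, and neighbours among these 4 had overlapping intervals. In the USP6 library GRB2 and GRAP came next, each apart from its neighbours, and then LCP2 and LAT2, whose intervals overlapped. At the bottom were FYB1 and SKAP2, overlapping as well. SKAP2 thus held place 3 of 10 with pccl and place 9 with USP6. Its places were 6 and 9 when the longest coding transcript was used as the length. With the longest coding transcript as the length, PRAM1 and VAV1 had FPKM values with overlapping intervals in the pccl library, 24.2 (22.5 to 25.9) and 23.96 (22.4 to 25.6). On that scale their levels with USP6 were 171 (167 to 176) and 50.5 (48.2 to 52.9).

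PRAM1 held a larger share of the group's counts in the USP6 library. All 10 genes together had 3574 counts in the pccl library, of which PRAM1 held 22.2% (20.9 to 23.6). In the USP6 library they had 10743 counts, of which PRAM1 held 53.2% (52.3 to 54.2). Per kilobase of the longest coding transcript the shares were 28.9% and 60.4%. Summed counts were 2.95-fold higher in the USP6 library (2.84 to 3.07) with PRAM1 and 1.78-fold higher (1.70 to 1.86) without it.

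By fold in FPKM, without the pseudocount, the genes ran from PRAM1 through GRB2, GRAP, VAV1, LAT2, PLCG2, SH3BP2, LCP2 and FYB1 to SKAP2. PRAM1 stood apart from GRB2 beyond counting error, GRAP from VAV1, VAV1 from LAT2 and FYB1 from SKAP2. The intervals of GRB2 and GRAP overlapped, and so did those of each neighbouring pair from LAT2 to FYB1.

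Genes that act beside these 10 went both ways. In 7 lists of 113 genes, chosen by function, 71 genes were expressed, of which 21 were higher and 10 lower at the limit, where 13.7% of all expressed genes were higher and 11.4% lower. Centred on the trend with base composition described below, 8 of the listed genes were higher and 9 lower. Of 27 other cytosolic adaptors, 19 were expressed, 6 higher and 4 lower, with a median log2 ratio of 0.27. After centring, 2 were higher (DOK3 and GAB2) and 4 lower, and with a pseudocount of 5 FPKM, 1 was higher and 0 lower. DOK3, an adaptor that restrains signalling from immunoreceptors, had 2255 and 10888 counts, or 18.6 and 88.2 FPKM, 4.75-fold higher (4.54 to 4.97). GAB2, which binds GRB2 and recruits PTPN11 and phosphoinositide 3-kinase, had 20 and 295 counts, 14.5-fold higher (9.22 to 24.1). DBNL, an actin-binding adaptor known to bind PRAM1, was 3.41-fold higher (3.01 to 3.86). DOK2, SH2B2 and PSTPIP1 were the other higher genes, at 3.21-fold, 2.71-fold and 6.05-fold. Centred log2 ratios of DBNL, DOK2, SH2B2 and PSTPIP1 were 0.91, 0.85, 0.29 and 0.43, short of the limit. With pccl PSTPIP1 and GAB2 had 0.263 and 0.198 FPKM, short of expression.

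The 4 lower cytosolic adaptors were SLA2, SH2B3, SH3KBP1 and CRK. SLA2, which overlaps RAB5IF, had 208 and 8 counts, 26.4-fold lower (13.2 to 62.1). SLA2 and CRK lay under 1 FPKM in the USP6 library (0.147 and 0.334). CRK was 6.56-fold lower (4.35 to 10.2), whereas its relative CRKL had 14.5 and 12.97 FPKM. SH2B3, a brake on cytokine receptor signalling, was 3.76-fold lower (3.22 to 4.42), and SH3KBP1, which links CBL to receptor uptake, 3.11-fold lower (2.82 to 3.44). Of the other cytosolic adaptors, BLNK, CLNK, SH2D1A and SKAP1 had 0 counts in both libraries. STAP1 had 6.78 and 8.36 FPKM and SH2D2A 2.35 and 2.73 FPKM. Of 6 transmembrane adaptors LIME1 alone was expressed, 4.002-fold higher (3.35 to 4.81), and it overlaps AL121845.3. After centring on base composition its log2 ratio was 0.70. LAT, the T cell counterpart of LAT2, overlaps AC109460.3 and had 0.303 and 0.712 FPKM, TRAT1 had 0 counts and SIT1 0 and 11.

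Effector enzymes and exchange factors had 1 higher and 4 lower among 13 expressed of 22, with a median of -0.38. The background for this and each later list is that of all expressed genes, 13.7% higher and 11.4% lower, with a median of 0.06. CDC42, a GTPase that controls actin through WAS, had levels of 31.8 and 4.98 FPKM, 6.39-fold lower (5.69 to 7.18). PIK3CD, the leukocyte phosphoinositide 3-kinase catalytic subunit, had 352 and 6 counts, 59.7-fold lower (27.1 to 164), lay at 0.0481 FPKM in the USP6 library and overlaps CLSTN1. The protein kinase C genes PRKCB and PRKCD went opposite ways, 3.33-fold lower (2.94 to 3.78) and 5.07-fold higher (3.31 to 8.04), and PRKCD lay under 1 FPKM in the pccl library. VAV3, described above, was the other lower gene. After centring on base composition, PRKCD, at 0.88, and VAV3, at -0.93, lay short of the limit. RAC1 and RAC2, the GTPases that VAV1 activates, had log2 ratios of 0.10 and 0.22.

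Among 14 proximal tyrosine kinases 7 were expressed, with 1 higher (CSK), 1 lower (YES1) and a median of -0.58. CSK, which inhibits SRC family kinases, was 2.19-fold higher (2.06 to 2.33), with a log2 ratio of 1.07, near the limit. After centring on base composition it was 0.37, and 0 kinases were higher with TMM scaling, nuclear depth or a pseudocount of 5 FPKM. YES1 was 39.7-fold lower (24.95 to 67.4), at 0.169 FPKM in the USP6 library. LYN, SYK and BTK had log2 ratios of -0.45, -0.59 and -0.58. Negative regulators had 4 higher and 1 lower among 10 expressed of 12, with a median of 0.35. PTPN6, the phosphatase that acts at inhibitory receptors, had 11.4 and 43.3 FPKM, 3.79-fold higher (3.58 to 4.01). The diacylglycerol kinase genes DGKA and DGKZ, whose enzymes remove a product of phospholipase C, were also higher. DGKA, which overlaps PYM1, was so by 3.14-fold (2.84 to 3.49) and DGKZ by 2.67-fold (2.52 to 2.82). The centred log2 ratio of DGKZ was 0.69, short of the limit. PTPN22 was 2.89-fold higher (2.46 to 3.41). PTPN11, a phosphatase that also promotes RAS signalling from many receptors and overlaps RPL6, was 3.24-fold lower (3.07 to 3.42).

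Of 18 integrin and actin genes that the FYB1-SKAP module acts on, 16 were expressed, 6 higher and 0 lower, with a median of 0.61. After centring on base composition, 2 were higher (WIPF1 and ITGAM), and the log2 ratios of WAS, FERMT3, EVL and ITGAX were 0.67, 0.51, 0.70 and 0.73. With a pseudocount of 5 FPKM, 2 were higher as well, here WAS and WIPF1, and ITGAM fell short of the limit. WAS, the actin regulator activated by CDC42, had 42.9 and 102 FPKM, 2.37-fold higher (2.26 to 2.50), and its partner WIPF1 was 2.90-fold higher (2.72 to 3.10). The integrin activator gene FERMT3, which overlaps TRPT1, was 2.26-fold higher (2.10 to 2.43) and EVL, an actin elongation factor bound by FYB1, 2.52-fold (2.27 to 2.81). ITGAM and ITGAX, which encode alpha chains of phagocyte integrins, both lay under 1 FPKM in the pccl library. ITGAM was 28.0-fold higher with USP6 (15.0 to 59.1) and ITGAX 3.86-fold (3.004 to 5.003). APBB1IP, which brings RAP1 and talin together, had 23.3 and 25.6 FPKM. Since the lists were drawn up with results of these libraries known, their medians describe these libraries and set no list apart from other genes.

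Retinoic acid receptors and genes induced by retinoic acid had 5 of 14 expressed, 2 higher and 0 lower, with a median of 0.88. DHRS3, a retinaldehyde reductase, was 4.25-fold higher (3.57 to 5.08) and the receptor gene RXRA 3.09-fold (2.64 to 3.61). RARA itself had 3.84 and 7.22 FPKM, a log2 ratio of 0.76. After centring on base composition, 1 gene of the list was higher, DHRS3 at 1.54, and the median was 0.59. RXRA and RARA then had log2 ratios of 0.61 and 0.09. The other 9 genes of the list lay under 1 FPKM in both libraries. STRA6, a retinol transporter, had 0 and 41 counts, and the receptor gene RARG 0 and 26, at least 13.4-fold and 8.52-fold higher against a floor of 3 counts per library. ASB2 had 2 and 20 counts, 9.83-fold higher (2.39 to 86.7), CD38 0 and 8, and CYP26A1, which encodes a retinoic acid hydroxylase, 0 and 5. TGM2 had 3 and 0 counts, and RARB and CYP26B1 were at 0 in both.

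**Figure D3:**
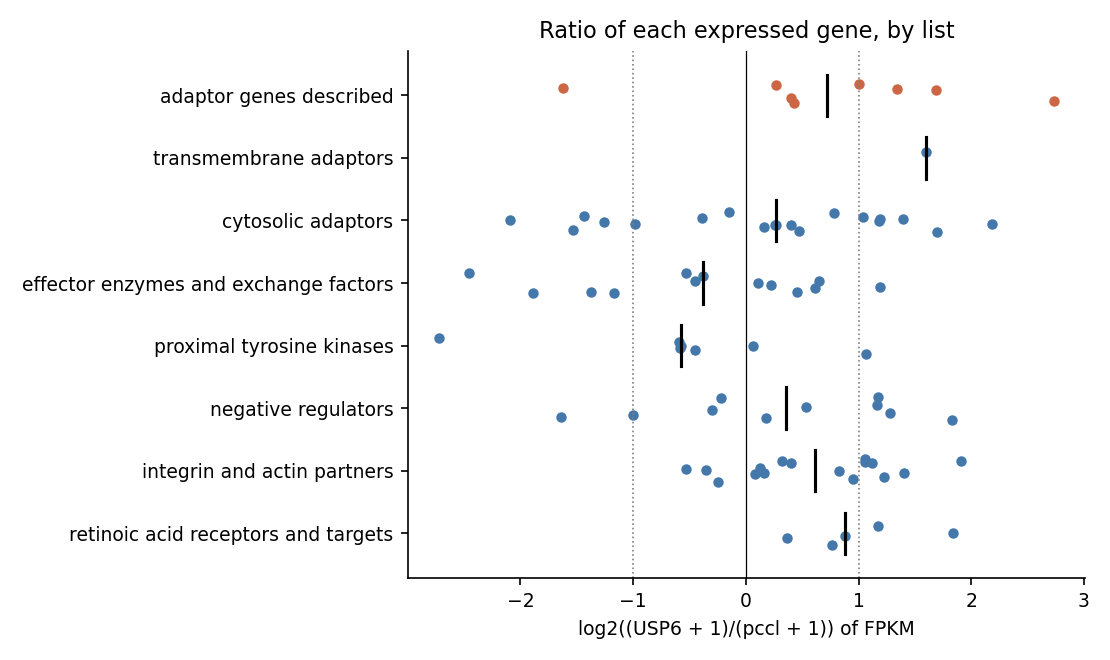
Ratio of each expressed gene, as log2((USP6 + 1)/(pccl + 1)) of FPKM, for the 10 genes described (orange, 8 expressed) and for the 7 pathway lists (blue, 71 expressed genes), with a bar at each list's median and dotted lines at -1 and 1. The points are spread vertically at random for visibility; genes on both sides of 0 occur in every list with more than 5 expressed genes.

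The expressed protein-coding neighbours of PRAM1 on the chromosome had smaller fold differences than PRAM1. Within 100 kb of its locus the table lists 13 other genes, of which 8 were expressed. Of these 8, 2 were higher and 0 lower, and their median log2 ratio was 0.77. For comparison, the shares past the limit over all expressed genes were 13.7% and 11.4%, and their median 0.06. Where known, G and C in the expressed neighbours ran from 46.1% (ELAVL1) to 63.5% (RAB11B). Expressed genes at 55 to 60% had a median of 0.38, and those at 60% or more 0.71. The part of base composition in the neighbour ratios was not tested. HNRNPM, 942 bases away on the other strand, was 2.15-fold lower (1.83 to 2.52) in the USP6 library, with 3.87 and 1.80 FPKM. ZNF414 on the other side, 6566 bases away, had 4.75 and 9.33 FPKM, 1.96-fold higher (1.70 to 2.27). MYO1F, a myosin of immune cells 17678 bases away, was 2.92-fold higher (2.59 to 3.30). AC130469.1, a gene listed inside the MYO1F locus on the same strand, had 54 and 699 counts, 12.7-fold higher (9.64 to 17.1), and its reads could be shared with MYO1F. ADAMTS10, 77130 bases away, was not expressed, with 0 and 23 counts.

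The protein-coding genes nearest to PRAM1 in level were sought by their distance to it in log2(FPKM + 1) over both libraries, a likeness that rests on 2 values. The nearest was C9orf16 with 16.2 and 93.7 FPKM, at a distance of 0.28. DOK3 followed at 0.48, then CDT1 (15.7 and 67.7 FPKM, 0.51), GNAS (19.9 and 109 FPKM, 0.61) and SMIM15 (16.5 and 64.1 FPKM, 0.61). DOK3 is thus the gene of the pathway lists with levels most like those of PRAM1.

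Promoter sequences were examined where a table of them had an entry. The RefSeq promoter table used (GRCh38.p14) held 12 windows for 8 of the 10 genes, and had no entry for PRAM1 or LAT2. The 250 bases before each start site were searched on both strands for GAGGAA, found in sites of the ETS factor SPI1, TGTGGT, a core of RUNX sites, and AGGTCA, which nuclear receptors bind. Of all 35116 windows, 23.6% held GAGGAA, 11.0% TGTGGT and 12.1% AGGTCA. VAV1, GRB2 and PLCG2 are shown as examples whose windows lie outside annotated exons of the gene or could be shortened to do so. A window of SH3BP2 that could also have been shortened is not shown. The VAV1 window is chr19:6772458-6772707 on the plus strand, that of GRB2 chr17:75405710-75405928 on the minus strand and that of PLCG2 chr16:81738791-81739040 on the plus strand. Capitals mark the motifs found.
VAV1: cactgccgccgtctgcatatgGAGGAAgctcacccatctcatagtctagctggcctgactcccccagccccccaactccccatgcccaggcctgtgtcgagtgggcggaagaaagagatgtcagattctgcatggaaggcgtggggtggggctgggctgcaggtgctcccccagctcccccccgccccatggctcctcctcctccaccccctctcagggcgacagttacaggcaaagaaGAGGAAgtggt
GRB2: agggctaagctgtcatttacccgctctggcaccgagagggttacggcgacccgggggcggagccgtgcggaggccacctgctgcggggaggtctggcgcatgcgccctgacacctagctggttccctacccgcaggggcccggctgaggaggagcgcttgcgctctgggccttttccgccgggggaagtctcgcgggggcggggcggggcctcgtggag
PLCG2: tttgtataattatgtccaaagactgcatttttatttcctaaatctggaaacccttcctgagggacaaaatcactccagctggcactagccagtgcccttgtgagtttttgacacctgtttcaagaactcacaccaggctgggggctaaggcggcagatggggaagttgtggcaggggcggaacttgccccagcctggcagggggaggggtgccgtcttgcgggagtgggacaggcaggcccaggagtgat
The VAV1 window held GAGGAA at 2 places that share no bases, and neither of the other motifs. The GRB2 and PLCG2 windows held 0 matches to the 3 motifs. Of the windows not shown, those of SKAP2 and LCP2 each held GAGGAA at 2 places, as VAV1 did, and that of GRAP at 1. TGTGGT was found in 1 of 2 FYB1 windows and in 2 of 4 SH3BP2 windows, and 1 of these SH3BP2 windows also held GAGGAA and AGGTCA. G and C made up 72.1% of the GRB2 window, 63.6% of that of VAV1 and 54.4% of that of PLCG2. A match of letters is a description of the sequence and does not show that a factor binds.

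The ratios of the 10 genes were spread along the base composition of their transcripts. Over all expressed genes with a known transcript, the median log2 ratio was -0.37 where G and C made up less than 40% of the longest transcript and 0.71 where they made up 60% or more. PRAM1 had the highest share of the 10 genes, 63.2%, and SKAP2 the lowest, 38.8%, with FYB1 at 38.9%. At these compositions the trend over all genes ran at 0.68 for PRAM1 and -0.36 for SKAP2. Centred on the trend, PRAM1 had a log2 ratio of 2.05, GRB2 of 1.56 and SKAP2 of -1.26, all still past the limit. GRAP, at 0.84, and VAV1, at 0.66, then lay short of it, so 2 genes were higher and 1 lower. FYB1 went from -0.06 to 0.30. The part of base composition in these ratios was not tested.

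**Figure D4:**
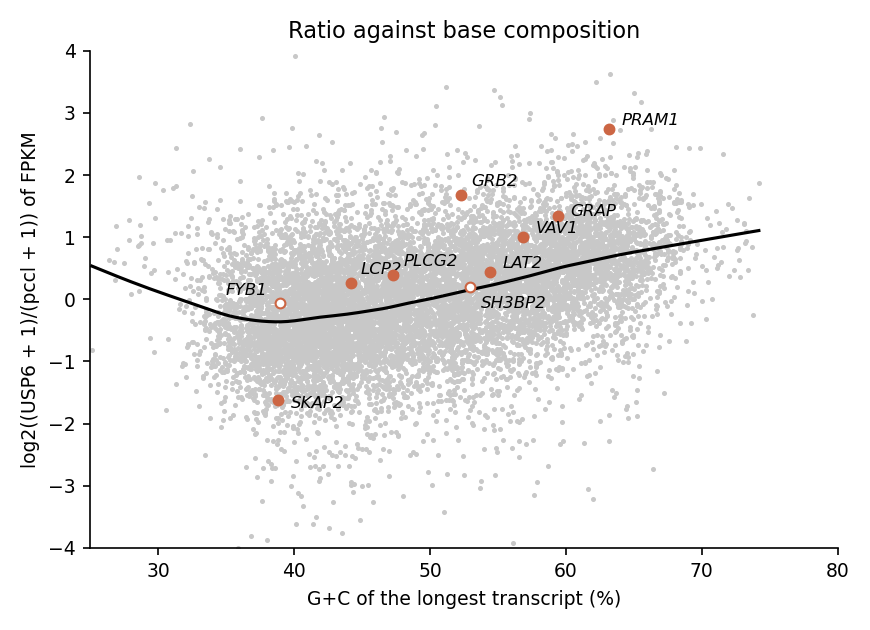
Ratio of each expressed gene, as log2((USP6 + 1)/(pccl + 1)) of FPKM, against the share of G and C in its longest transcript (grey), with the locally weighted trend over all genes (black line) and the 10 genes named (filled if expressed, open if not). PRAM1, GRB2 and SKAP2 lie furthest from the line, at 2.05, 1.56 and -1.26 from it, and 3 genes fall outside the axes.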

How the data were processed

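The authors deposited whole-number read counts and FPKM values per gene for 1 library per group, per the file headers. HISAT2 2.0.4, StringTie 1.3.3b and edgeR appear in the submitters' processing notes, without their roles. Genome build, annotation and strandedness are not given in the sources used here. In 94.8% of 50111 identifiers shared with GENCODE release 29 (GRCh38) the locus was identical. The FPKM deposited by the authors is the count over a gene length and the column total. That length was within 0.1% of the sum of all distinct exons of the gene in GENCODE, overlapping exons each counted in full, for 88.2% of 18013 genes.

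Values of identifiers with 1 symbol were summed (50464 symbols). The difference was log2((USP6 + 1)/(pccl + 1)) of FPKM with a limit of 1, at a minimum of 1 FPKM in the higher library. No test was run, since 1 library a group leaves 0 residual degrees of freedom. Fold ratios are FPKM ratios without the pseudocount, with exact (Clopper-Pearson) 95% intervals from the counts. The trend with G+C content of the longest transcript was a lowess fit (span 0.3). The members and lists were chosen with earlier results of these data known. Named were the 10 members, their relatives, from each list any gene past the limit and up to 4 expressed genes of largest ratio, genes at 0 counts, neighbours of PRAM1 within 100 kb and the 5 genes nearest in level. STAP1, SH2D2A, CRKL, unexpressed genes of the retinoic acid list, RAC1, RAC2, APBB1IP, LYN and SIT1, and genes that overlap a listed gene, were named outside this rule after their values were seen. Alternatives were other pseudocounts, filters, scalings, gene sets and limits, and, chosen after the data were seen, the length of the longest transcript. Some values of listed genes are not reported here. The steps were tested on simulated data. Software was matplotlib 3.10.9, statsmodels 0.14.6, SciPy 1.17.1, pandas 2.3.3 and Python 3.11.15, with edgeR 4.0.16 and DESeq2 1.42.0 in R 4.3.3 for the scaling alternatives alone.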

Additional observations from a re-analysis of the deposited data

How the results depend on the processing

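No paired analysis was possible because each group holds 1 library, and for the same reason no library could be left out. Of 15 alternatives, 10 could move the log2 ratio of a gene. Under these 10, PRAM1 and GRB2 lay past the limit of 1 each time, from 2.05 to 2.92 and from 1.08 to 1.94, SKAP2 past -1 under 9, from -2.70 to -0.63, and GRAP past 1 under 8. VAV1 did so under 4, and was short of it with TMM, DESeq2 size factors, nuclear depth, a median set to 0, G+C centring and a pseudocount of 5. With a pseudocount of 5 FPKM, 2 of the adaptor genes were higher and 0 lower (median 0.44). With a filter of 5 FPKM, 4 were higher and 0 lower (median 1.51), since SKAP2 no longer passed. Centred on the G+C trend, 2 were higher. The median was 0.42 without a filter, which adds FYB1 and SH3BP2, and 0.39 with depth from nuclear genes alone, which adds SH3BP2.

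In the 7 pathway lists, 5 genes were higher and 3 lower with a pseudocount of 5, 13 and 6 with a filter of 5 FPKM, and 8 higher after centring on G+C. Over all genes, 2295 were higher and 1993 lower with a pseudocount of 0.1, 364 and 301 with a pseudocount of 5, and 808 and 682 with a filter of 5 FPKM. With a limit of 0.58 they were 2831 and 2489, with nuclear depth 2005 were lower, and with the same FPKM sum 2199 were higher, with a median of 0.21. Depth limits FYB1, with 44 and 38 counts.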

Other observations

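The gene lengths behind the deposited FPKM values grow with the number of exon variants annotated for a gene, which bears on levels compared between these genes. The length used exceeded the longest coding transcript for all 10 genes. It was 30982 against 9211 bases for SH3BP2, 7727 against 2527 for LAT2, 4915 against 2667 for PRAM1 and 6414 against 3998 for SKAP2. A fold between the libraries is not touched by the length, since it is the same in both. With the length of the longest transcript, 9 of the 10 genes were expressed, 4 of them higher and 1 lower, and their median log2 ratio was 0.52.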
